A study of Mus musculus with 12 samples.

Results

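The C/EBP transcription factors are a family of basic leucine zipper proteins, and they were followed here through every array probe named for Cebpa, Cebpb, Cebpd, Cebpe or Cebpg. Names came from the gene name in the files or from the current symbol of the probe's accession. Of the 5 genes, 4 were represented, by 8 of the 41174 probes, and these 4 were among the 19301 genes tested. Cebpe matched no probe by either route and is not analysed here. Every one of these 8 probes was measured well above background in each of the 12 uteri, and none was saturated.

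The samples were whole uteri of adult ovariectomized female mice of C57bl6/Jx129 strain, at least 10 weeks old, that had rested for 10 to 14 days after surgery so that ovarian hormones could clear. Wild-type (WT) mice carried normal Esr1, the gene of estrogen receptor alpha, and EAAE mice carried an Esr1 genotype that the series title describes as DNA binding deficient. Mice were injected either with 100 ul of saline or with estradiol (E2) in the same volume, at a dose not given in the sources used here, and its uterus was frozen 2 h later. Both genotypes with both treatments made 4 groups, each of 3 mice with 1 uterus per array, and ovariectomy was common to all of them. The labels do not give the zygosity of EAAE or how it was made. An array reads all cells of the uterus together, so fewer cells of a type and less RNA per cell cannot be told apart.

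C/EBP proteins pair with each other through a zipper of regularly spaced leucines and bind DNA through the basic region next to it. They are known from the differentiation of fat, liver and myeloid cells and from the acute-phase response, in which Cebpb and Cebpd are rapidly inducible. In the uterus, Cebpb is known as a hormone-responsive gene that stromal cells need in order to form the decidua. Cebpg lacks the activation domains of its relatives and is a known partner of Atf4.

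The zipper that gives the family its name can be read in the array probes themselves. In each of the genes with more than 1 probe, the probe nearest the transcript's start held an open reading frame with leucine codons 7 codons apart, written in capitals in the 60-base probe sequences printed here 5′ to 3′ to show which stretch each measurement reads. Coordinates are those of the files (mm7), and the exon or UTR placement of the probes on that build was not analysed here.
Cebpa, chr7:32010056-32010115, plus strand: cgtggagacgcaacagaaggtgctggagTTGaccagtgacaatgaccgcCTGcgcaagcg
Cebpb, chr2:167482463-167482522, plus strand: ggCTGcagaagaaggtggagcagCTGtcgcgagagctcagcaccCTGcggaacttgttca
Cebpg, chr7:31939516-31939575, minus strand: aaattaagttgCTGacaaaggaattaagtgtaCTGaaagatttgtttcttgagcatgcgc
The Cebpb stretch held 3 such codons, and those of Cebpa and Cebpg held 2 each. The remaining probes lay further along the same transcripts, at chr7:32011212-32011271 for Cebpa, chr2:167483001-167483059 for Cebpb, and chr7:31936790-31936849 and chr7:31935956-31936015 for Cebpg. Cebpd was read by 1 probe, at chr16:15431723-15431782.

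Levels are log2 intensities after subtraction of each array's 75th percentile, so that 0 is that percentile. They are compared between groups and not between probes, whose brightness depends on their sequence. For a gene with several probes, the brightest stood for the gene in the tests over all genes. Differences between groups were tested with limma over all 12 arrays, and a difference was called where the p-value adjusted over all genes (Benjamini-Hochberg) was under 0.05. Probes set side by side were tested in a fit over all 29017 probes that passed the same filter.

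Several facts of the series bear on these results. In WT uteri E2 changed 9529 genes, 3756 upward and 5773 downward, and in EAAE uteri it changed 271. Scaling by the array median in place of the 75th percentile moved the median WT response of all genes from -0.15 to -0.011 and the median response difference from 0.15 to 0.051, and turned the WT split to 4537 higher and 3939 lower. With that scaling the response difference was higher in 3104 genes and lower in 3129, against 4383 and 2863 otherwise, and EAAE against WT after E2 was higher in 5319 and lower in 5236, against 6371 and 4779. In EAAE uteri the split became 127 higher and 75 lower, against 133 and 138. The EAAE count of 271 was 159 without WT saline mouse 2, 145 without WT E2 mouse 1 and 154 without WT E2 mouse 3. It was 90, 62 and 116 without EAAE saline mouse 1, 2 or 3, and 111 and 82 without EAAE E2 mouse 1 or 2. The 12 arrays lay on 3 slides, and all EAAE E2 arrays lay at the fourth position of theirs, so position moved with group. With slide and position as terms, 416 genes were called between genotypes under saline, against 5690 without them. Of 8 defining uterine markers, 7 were well above background on every array, and Hoxa13 was so on 3. Esr1 itself was measured on all arrays. Its brighter probe averaged 2.96 ± 0.10 (SD, n = 3) in WT saline, 2.71 ± 0.054 in WT E2, 3.35 ± 0.12 in EAAE saline and 3.13 ± 0.11 in EAAE E2. Its dimmer probe averaged -2.23 ± 0.056 in WT saline, -2.09 ± 0.088 in WT E2, -2.53 ± 0.077 in EAAE saline and -2.59 ± 0.32 in EAAE E2. Thus the brighter probe averaged higher in EAAE than in WT, and the dimmer probe lower. A probe signal does not show which Esr1 sequence was expressed and so does not check the genotype.

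E2 raised all 4 measured C/EBP genes in WT uteri, where 19.5% of all genes were called higher, 29.9% lower and 49.4% in either direction. Cebpb rose most, 9.79-fold, followed by Cebpa (2.28-fold), Cebpg (1.67-fold) and Cebpd (1.64-fold). The median of the 4 changes was 0.96 on the log2 scale, against -0.15 for all genes tested. In EAAE uteri none of the 4 was called, where 1.40% of all genes were, and 1 of them, Cebpb, had an unadjusted p under 0.05. The 2 responses differed in 3 of the 4 genes (Cebpb, Cebpd and Cebpg), each lower in EAAE, where 14.8% of all genes had a lower, 22.7% a higher and 37.5% a different response. Since the response difference shares its arrays with both responses, it adds no separate samples.

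**Figure D1:**
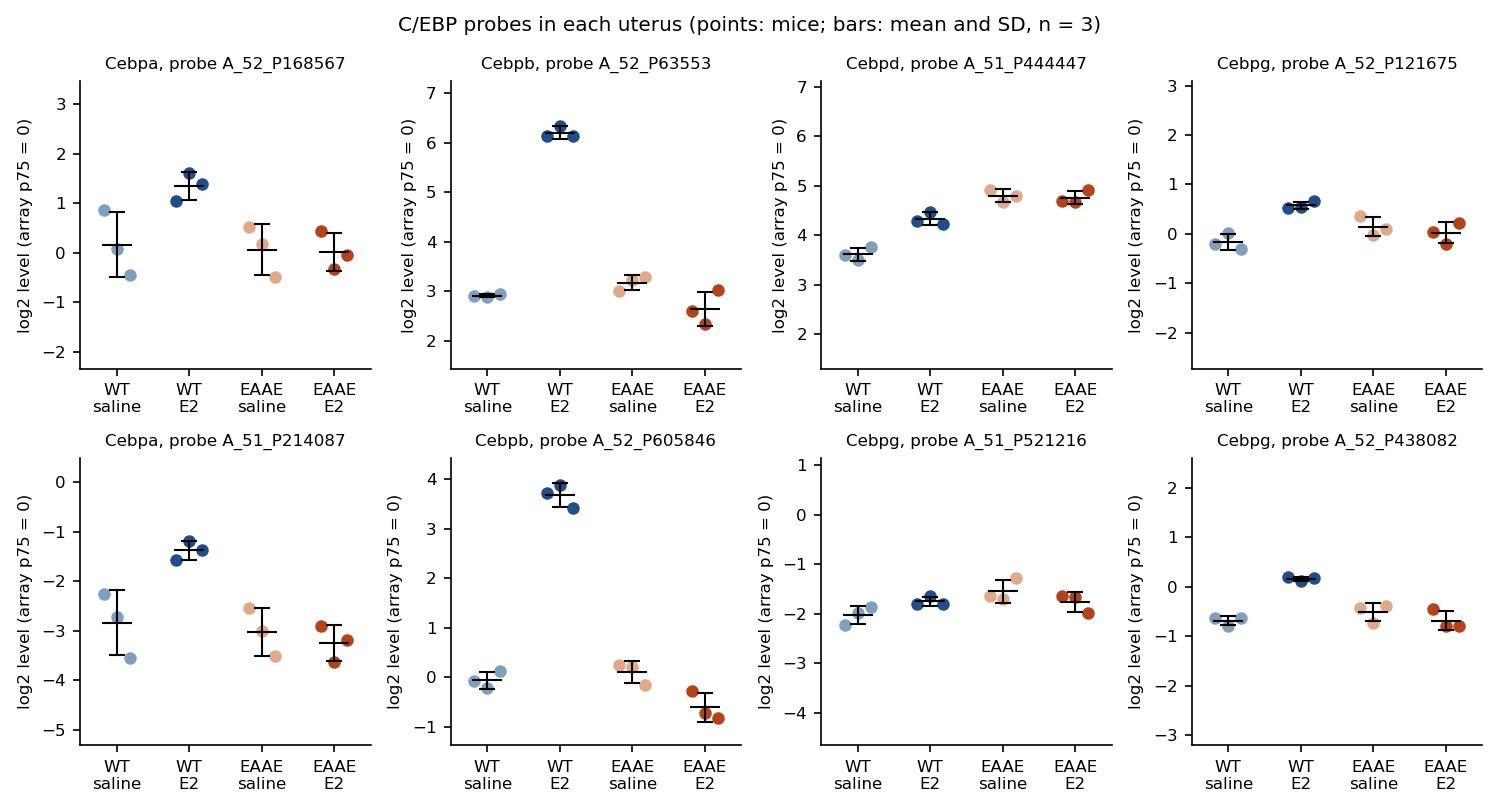
Log2 level of each C/EBP probe (vertical axis, 0 is the array's 75th percentile) in the 4 groups, with a point for each mouse and bars for the mean and SD of 3 mice. All panels span the same number of log2 units. Both Cebpb probes stand far higher in WT E2 than in the other groups, while Cebpd is lowest in WT saline and highest in the EAAE groups.

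Cebpb, the factor known for its role in the uterine stroma, gave the widest separation. Its level was 2.89, 2.89 and 2.94 in the 3 WT saline mice and 6.13, 6.35 and 6.13 after E2. In EAAE mice it was 3.00, 3.22 and 3.29 under saline and 2.59, 2.32 and 3.01 after E2. The WT E2 uteri lay more than 2 log2 units above every other uterus, and the 9 remaining uteri lay between 2.32 and 3.29. The WT difference was 3.29 (SE 0.16, 95% confidence interval 2.95 to 3.64, limma adjusted p = 1.89e-07), the 67th highest of the 17056 genes measured in both WT groups. It was 3.24 on slide 1 and 3.43 on slide 3, which held both WT groups.

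In EAAE uteri the Cebpb difference did not pass the threshold. It was -0.53 (SE 0.16, unadjusted p = 0.0068, limma adjusted p = 0.135), and the lowest EAAE saline uterus, at 3.00, overlapped the highest EAAE E2 uterus, at 3.01. The difference was -0.63 on slide 1 and -0.82 on slide 2. It was called without EAAE E2 mouse 3 (-0.71, limma adjusted p = 0.0247) and when the mean of both Cebpb probes was used (-0.62, limma adjusted p = 0.0379). The EAAE response minus the WT response was -3.82 (SE 0.22, limma adjusted p = 1.83e-06), the 42nd lowest of 16513 genes measured in all 4 groups.

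The Cebpb zipper probe, A_52_P605846, gave the same pattern at another place in the transcript. It read -0.081, -0.22 and 0.12 in WT saline and 3.72, 3.89 and 3.41 in WT E2. It read 0.25, 0.20 and -0.15 in EAAE saline and -0.27, -0.72 and -0.83 in EAAE E2. Here all EAAE E2 uteri lay below all EAAE saline uteri. The WT difference was 3.74 (SE 0.18, limma adjusted p over all probes = 2.09e-07), and the EAAE difference was -0.71 (SE 0.18, limma adjusted p over all probes = 0.0889). In that fit 21.0% of all probes were called higher in WT after E2, and 1.43% were called in EAAE.

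Cebpd, an acute-phase member of the family, rose after E2 in WT and also differed between genotypes before hormone. Its level was 3.59, 3.49 and 3.75 in WT saline and 4.29, 4.48 and 4.22 in WT E2. It was 4.92, 4.66 and 4.80 in EAAE saline and 4.69, 4.66 and 4.92 in EAAE E2. Thus WT saline was the lowest group, WT E2 lay above it without overlap, and every EAAE uterus, with or without E2, lay above every WT E2 uterus. The EAAE groups overlapped each other.

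The WT rise of Cebpd was 0.72 (SE 0.11, 95% confidence interval 0.47 to 0.97, limma adjusted p = 0.00045), with 0.63 on slide 1 and 0.86 on slide 3. In EAAE the difference was -0.035 (95% confidence interval -0.29 to 0.22, limma adjusted p = 0.91). The EAAE response was lower than the WT response by a difference of -0.75 (SE 0.16, limma adjusted p = 0.0046).

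Under saline, Cebpd was the 1 C/EBP gene called between genotypes, higher in EAAE, where 13.7% of all genes were called higher and 29.5% in either direction. It was 2.27-fold higher, a difference of 1.18 (SE 0.11, 95% confidence interval 0.93 to 1.43, limma adjusted p = 5.13e-05), the 387th highest of 17802 genes measured in both saline groups. Slide 1, which held both groups, gave 1.07. With slide and array position as terms the difference was 1.22 and the adjusted p 0.0508 (limma), so the call ended while the value hardly moved. Of the other genes under saline, Cebpb differed by 0.26 (limma adjusted p = 0.234), although the lowest EAAE uterus (3.00) lay above the highest WT uterus (2.94). Cebpg differed by 0.32 (limma adjusted p = 0.108) and was called when the mean of its 3 probes was used (0.32, limma adjusted p = 0.0246). With slide and position as terms the Cebpg difference was 0.88 and was not called (limma adjusted p = 0.122). Cebpa differed by -0.097 (limma adjusted p = 0.858), which slide and position turned to 0.59.

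After E2 Cebpd was still higher in EAAE, by 0.43 (SE 0.11, limma adjusted p = 0.0075), with 0.47, 0.38 and 0.44 on the 3 slides. That call too ended with position as a term (0.39, limma adjusted p = 0.244).

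Markers of epithelium and of macrophages differed between genotypes under saline, where 13.7% of all genes were called higher and 15.8% lower. No adipocyte marker of 11 tested was called. Smooth muscle had 1 higher and 1 lower of 8 markers, stroma 2 and 2 of 9, neutrophils 1 and 2 of 6 tested. Of 10 epithelial markers, 8 were higher and 1 (Foxa2) lower in EAAE, all 10 were well above background on every array, and their summed linear level was 142.9 to 165.9 in WT and 225.9 to 284.6 in EAAE, in units of the array's 75th percentile. Of 11 macrophage markers on the array, 6 were lower and 1 (Cd163) higher in EAAE, and all were well above background on every array. Their sum was 114 to 180 in WT and 36.6 to 53.4 in EAAE. The brightest of them, Lyz2, weighed most in that sum, with a mean log2 level of 6.85 in WT saline and 4.98 in EAAE saline. The saline call of Lyz2 was lost with slide and position as terms (-0.84, limma adjusted p = 0.646), where 416 genes in all were called. After E2 the epithelial sum was 142.9 to 151.4 in WT and 229.6 to 276.2 in EAAE, and the macrophage sum was 71.3 to 91.1 and 39.5 to 137. Their part in the Cebpd difference was not tested.

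Cebpa, a driver of fat cell and myeloid differentiation, varied most among mice of 1 group. Its level was 0.86, 0.064 and -0.44 in WT saline and 1.04, 1.62 and 1.38 in WT E2. It was 0.52, 0.17 and -0.50 in EAAE saline and 0.43, -0.33 and -0.043 in EAAE E2. WT E2 was the highest group and lay above all other uteri, although WT saline mouse 1, at 0.86, lay not far below the lowest of them, at 1.04, and the 3 other groups overlapped.

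The WT rise of Cebpa was 1.19 (SE 0.35, 95% confidence interval 0.41 to 1.97, limma adjusted p = 0.0173), with 0.53 on slide 1 and 1.80 on slide 3. The call was lost without WT saline mouse 3 (0.89, limma adjusted p = 0.0685) and without WT E2 mouse 2 (1.05, limma adjusted p = 0.0642). In EAAE the difference was -0.046 (95% confidence interval -0.83 to 0.74, limma adjusted p = 0.963). The response difference of -1.23 (SE 0.50) was not called (limma adjusted p = 0.0755). It was called without WT saline mouse 1 (-1.58, limma adjusted p = 0.022), without EAAE saline mouse 3 (-1.51, limma adjusted p = 0.0382) and with the mean of both Cebpa probes (-1.46, limma adjusted p = 0.0366).

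The Cebpa zipper probe, A_51_P214087, was dimmer and read -2.25, -2.71 and -3.55 in WT saline and -1.56, -1.18 and -1.38 in WT E2. It read -2.54, -3.00 and -3.52 in EAAE saline and -2.91, -3.63 and -3.18 in EAAE E2. WT E2 again lay above all other uteri. Its WT rise was 1.46 (SE 0.33, limma adjusted p over all probes = 0.0045). Its response difference was called, at -1.69 (SE 0.47, limma adjusted p over all probes = 0.0185), where 16.7% of all probes were called lower. Within each of the 4 groups the mice stood in the same order on both Cebpa probes.

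Fat cell markers varied over the same uteri. Of 12 adipocyte markers, 10 were well above background on all arrays and none was below it on all, and Lep was above it on no WT E2 array. Their summed linear level was 224, 36.5 and 56.1 in the 3 WT saline mice and 11.5, 35.3 and 10.7 in WT E2. It was 240, 155 and 49.4 in EAAE saline and 319, 89.8 and 71.5 in EAAE E2. WT E2 held the lowest sums and the highest Cebpa levels. Among the 9 other uteri the 3 highest on the brighter Cebpa probe, mouse 1 of each group, had the 3 highest sums. On the other Cebpa probe this order did not hold. There WT saline mouse 2 (-2.71, sum 36.5) read above EAAE E2 mouse 1 (-2.91, sum 319). Of the 11 adipocyte markers tested, 9 were lower after E2 in WT, where 29.9% of all genes were called lower. After E2, 9 were higher in EAAE than in WT, where 33.0% of all genes were called higher. The part of fat cells in the Cebpa values was not tested.

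**Figure D2:**
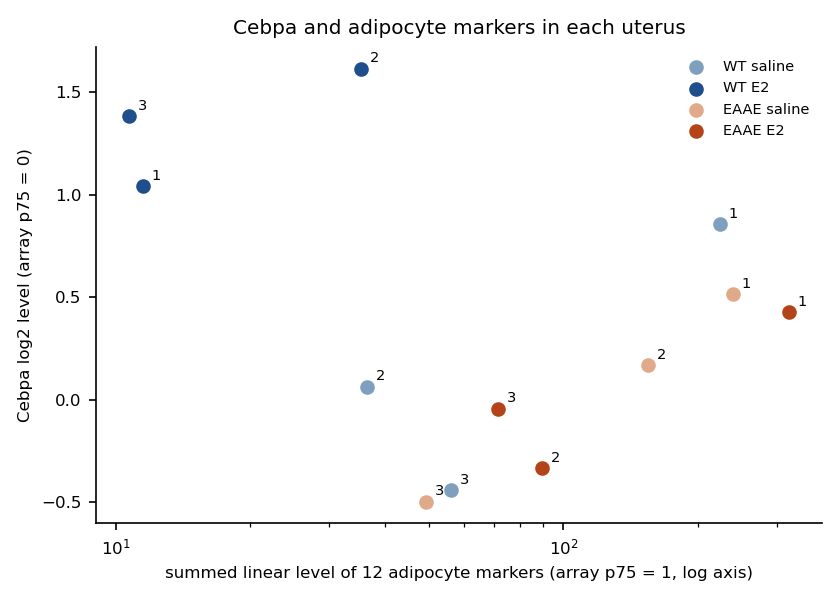
Log2 level of Cebpa (vertical axis, 0 is the array's 75th percentile) against the summed linear level of 12 adipocyte markers (horizontal axis, log scale, the array's 75th percentile is 1) in each of the 12 uteri, numbered by mouse. The WT E2 uteri lie at the upper left, with sums of 10.7 to 35.3, and the other groups run from sums of 36.5 to 319.

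Cebpg, the family member that pairs with Atf4, was read by 3 probes along its transcript. The brightest, A_52_P121675, read -0.21, 0.017 and -0.30 in WT saline and 0.52, 0.55 and 0.66 in WT E2. It read 0.36, -0.016 and 0.10 in EAAE saline and 0.045, -0.20 and 0.23 in EAAE E2. WT E2 was above every other uterus, and the 3 other groups overlapped. The WT rise was 0.74 (SE 0.14, 95% confidence interval 0.44 to 1.04, limma adjusted p = 0.0012), with 0.87 on slide 1 and 0.69 on slide 3. In EAAE the difference was -0.13 (95% confidence interval -0.43 to 0.18, limma adjusted p = 0.685), and the response difference was -0.87 (SE 0.19, limma adjusted p = 0.0058).

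Along the Cebpg transcript the WT responses were 0.85 at the zipper probe, 0.74 at the brightest and 0.27 at the probe furthest from the start. The zipper probe, A_52_P438082, read -0.64, -0.78 and -0.63 in WT saline and 0.20, 0.12 and 0.17 in WT E2. It read -0.43, -0.72 and -0.39 in EAAE saline and -0.46, -0.80 and -0.79 in EAAE E2, so that only the WT E2 uteri stood above the array's 75th percentile. Its WT rise was 0.85 (SE 0.12, limma adjusted p over all probes = 0.0002). The furthest probe, A_51_P521216, read -2.23, -1.99 and -1.86 in WT saline and -1.81, -1.64 and -1.81 in WT E2. It read -1.65, -1.71 and -1.28 in EAAE saline and -1.64, -1.66 and -1.99 in EAAE E2. That probe was highest on average in EAAE saline. Its WT difference was 0.27 (95% confidence interval -0.05 to 0.60, limma adjusted p over all probes = 0.147), and it was the Cebpg probe called between genotypes under saline, 0.48 higher in EAAE (limma adjusted p over all probes = 0.0321, where 13.5% of all probes were called higher). That call was fragile. With slide and position as terms the value turned to -0.048, and the call was also lost with no filter (limma adjusted p = 0.0558), slide as a block (0.45, limma adjusted p = 0.134), the replicate block (limma adjusted p = 0.0534) and only the groups compared (limma adjusted p = 0.0613). It was lost as well without WT saline mouse 1 (0.38), WT saline mouse 2 (0.50) or EAAE saline mouse 3 (0.35). The differences between probes were not tested.

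**Figure D3:**
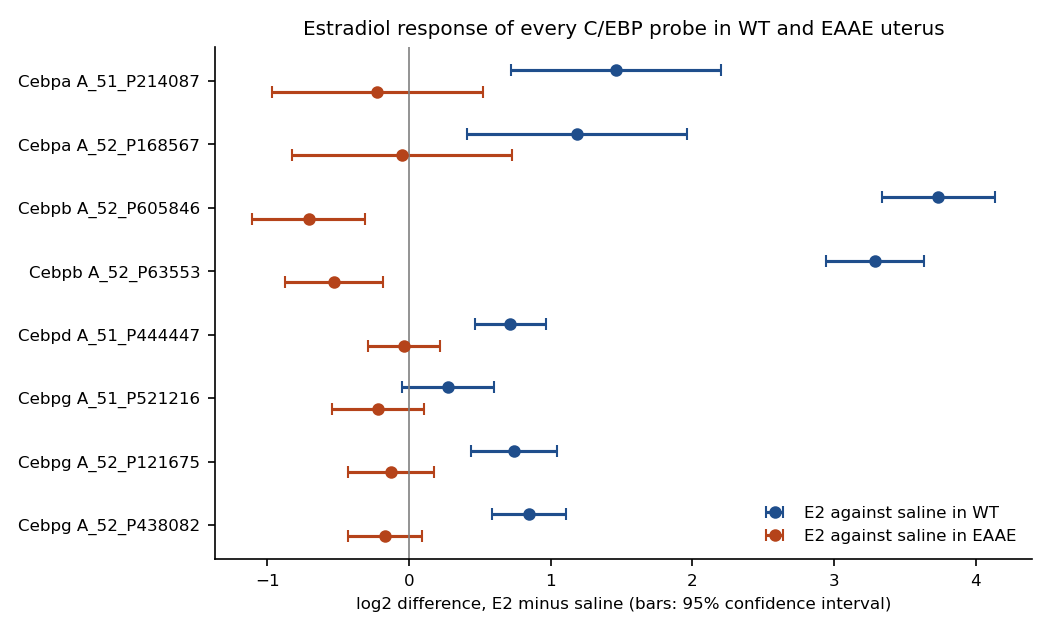
Log2 difference between E2 and saline (horizontal axis) for each C/EBP probe in WT and in EAAE, with 95% confidence intervals from the fit over all probes. In WT the intervals of 7 of the 8 probes lie above 0, and those of both Cebpb probes lie below 0 in EAAE.

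After E2 the genotypes differed in all 4 genes, where 57.8% of all genes were called. EAAE was lower in Cebpb, Cebpa and Cebpg and higher in Cebpd (24.8% of all genes were called lower and 33.0% higher). Cebpb was 11.8-fold lower, a difference of -3.56 (SE 0.16, limma adjusted p = 5.54e-08), with -3.54, -3.80 and -3.33 on the 3 slides. Cebpa was 2.51-fold lower (-1.33, SE 0.35, limma adjusted p = 0.0079), with -0.95, -1.38 and -1.66 on the slides. Cebpg was 1.47-fold lower (-0.55, SE 0.14, limma adjusted p = 0.0053), with -0.62, -0.72 and -0.33. With slide and position as terms Cebpb kept its call, whereas Cebpa (-0.71, limma adjusted p = 0.443) and Cebpg (-0.071, limma adjusted p = 0.849) lost theirs. The Cebpg probes were not alike here. The zipper probe was lower in EAAE (-0.85, limma adjusted p over all probes = 0.00013) and kept its call with slide and position (-0.90, limma adjusted p over all probes = 0.0424). The furthest probe was not called (-0.011, limma adjusted p over all probes = 0.958). This comparison shares its arrays with the responses and is given beside them, not as separate support.

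**Figure D4:**
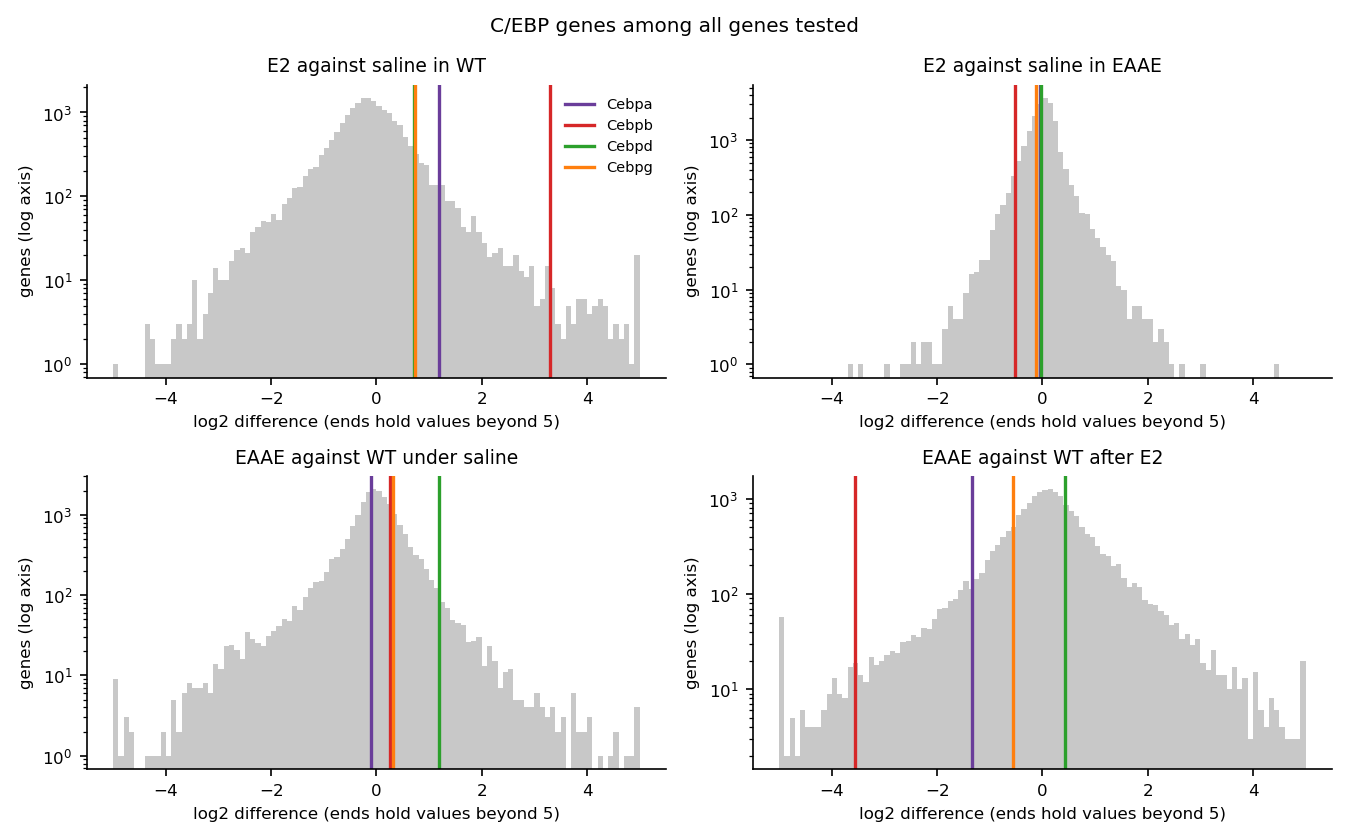
Histograms of the log2 difference of all 19301 genes tested (vertical axis, log scale) in 4 comparisons, with a line at each C/EBP gene. In WT the Cebpb line, at 3.29, stands in the upper tail, in EAAE the lines for Cebpa and Cebpd nearly coincide close to 0, and under saline Cebpd stands apart at 1.18.

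The promoter of Cebpb, the gene with the largest response, is printed for the letters that nuclear receptors and CREB-type factors are known to read. RefSeq's table (GRCm38.p6) held promoters for Cebpb, Cebpa and Cebpg. The 250 bases before the Cebpb start, chr2:167688665-167688914 on the plus strand, are 81.6% G and C, and capitals mark GGTCA, one arm of the estrogen response element, and TGACG, one arm of the cyclic AMP response element, which reads CGTCA where it lies on the other strand.
Cebpb promoter: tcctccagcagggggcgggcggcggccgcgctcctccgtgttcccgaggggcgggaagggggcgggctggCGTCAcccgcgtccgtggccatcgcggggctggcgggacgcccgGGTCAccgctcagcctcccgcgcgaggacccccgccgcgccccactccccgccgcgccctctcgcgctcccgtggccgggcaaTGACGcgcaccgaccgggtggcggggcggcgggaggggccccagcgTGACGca
GGTCA began at base -136 from the start, and TGACG lay at -180 to -176 on the minus strand and at -53 to -49 and -7 to -3 on the plus strand. Both motifs were searched on both strands in windows of 300 bases, and 40.5% of 32851 promoters held GGTCA and 20.8% held TGACG. The Cebpg promoter held GGTCA at -238 and -25, the Cebpa promoter held neither motif, and the full element GGTCANNNTGACC, found in 0.070% of promoters, was in none of the 3. Cebpa had the TATA box TATAAA at -30 to -25, which 13.6% of promoters hold somewhere in the window, and Cebpb had it 21 to 26 bases past its start. Cebpg had CCAAT on the minus strand at -89 and -28, the latter overlapping its GGTCA, and 37.4% of promoters held CCAAT. The C/EBP palindrome TTGCGCAA (0.183% of promoters) was in none of the 3. These are matches of letters and were not measured as binding sites.

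The genes nearest to each member in pattern were found from the root mean square (RMS) difference of log2 levels over the 12 arrays, with each gene centred on its own mean. For Cebpb they were Csrnp1 (0.17), Dennd2a (0.19), Ier3 (0.20), Coq10b (0.20) and Synpo (0.28). For Cebpd they were Map3k6 (0.14), Qprt (0.15), Fitm2 (0.17), Tlcd4 (0.18) and Tacc2 (0.18). Those nearest Cebpa were Trp53inp2 (0.22), Agpat2 (0.25), Eln (0.27), Mir22hg (0.27) and a transcript known by the identifier ENSMUST00000087063 (0.28). For Cebpg they were Sec24a, Kctd10 and Zc3h15 (0.11 each), Rhob (0.12) and Sult2a8 (0.12). These genes were chosen for their likeness and carry no test of it.

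Partners and regulators of C/EBP proteins changed in WT more often upward than downward. Of 20 such genes, all tested, 10 rose and 4 fell after E2, where 19.5% of all genes were called higher and 29.9% lower, with a median log2 difference of 0.27 against -0.15 for all genes. The bZIP partners Atf4 (2.31, SE 0.079, limma adjusted p = 3.54e-08) and Nfil3 (2.70, SE 0.28, limma adjusted p = 2.61e-05) rose, as did Trib1 (1.37), a pseudokinase adaptor that directs C/EBP proteins to degradation. Its relative Trib2 fell by 2.46 (SE 0.15, limma adjusted p = 1.08e-06). In EAAE none of the 20 was called, where 1.40% of all genes were. Of the 20, 4 had an unadjusted p under 0.05, and the median in EAAE was 0.043 against 0.026 for all genes. The smallest p there was that of Gsk3b, a kinase of C/EBP proteins, at -0.45 (limma adjusted p = 0.0896).

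The responses of 10 of these 20 partners differed between genotypes, 8 lower and 2 higher in EAAE, where 14.8% of all genes had a lower, 22.7% a higher and 37.5% a different response. Atf4, known both as a partner of Cebpg and as a stress-response factor, had a response difference of -2.31 (SE 0.11, limma adjusted p = 8.46e-07), and Trib1 one of -1.26 (limma adjusted p = 0.0015). Trib2 had one of 2.21 (SE 0.22, limma adjusted p = 5.12e-05). Under saline 6 partners were higher and 3 lower in EAAE, among them Trib3 (0.70), Trib1 (0.65) and Trib2 (-0.66). Of all genes, 13.7% were called higher and 15.8% lower under saline. After E2, 3 partners were higher and 10 lower, with Atf4 at -2.57 and Atf3 at -3.92. Of all genes, 33.0% were called higher and 24.8% lower after E2. The calls under saline of Trib1, Trib2 and Trib3, and that of Atf3 after E2, were lost with slide and position as terms (Trib1 0.13, Trib2 -0.29, Trib3 0.56, Atf3 -2.93), and that of Trib1 also with slide as a block (0.59).

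**Figure D5:**
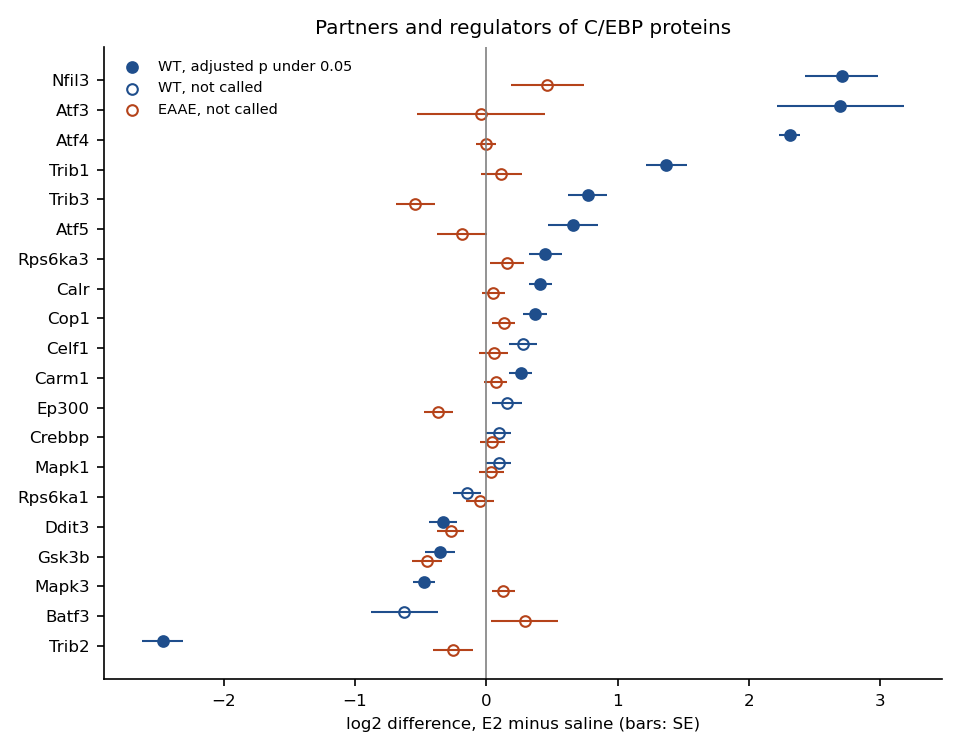
Log2 difference between E2 and saline (horizontal axis) of 20 partners and regulators of C/EBP proteins in WT and EAAE, with bars for the SE and filled points for genes with a limma adjusted p under 0.05. In WT 14 points are filled, from -2.46 (Trib2) to 2.70 (Nfil3), and in EAAE none is.

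Signals known to induce Cebpb or Cebpd, such as cytokine receptors and the cyclic AMP pathway, were called about as often as all genes. Of 16 tested genes (17 on the array, of 18 listed), 3 rose and 5 fell in WT after E2, where 19.5% of all genes were called higher and 29.9% lower, with a median of -0.090 against -0.15 for all genes. Crem, a cyclic AMP response factor, rose by 0.74 (SE 0.087, limma adjusted p = 5.95e-05), while the prostaglandin E2 receptors Ptger2 (-2.55) and Ptger4 (-1.38) and the glucocorticoid receptor Nr3c1 (-0.60) fell. None was called in EAAE, where 1.40% of all genes were, and 2 had an unadjusted p under 0.05 (limma). The response difference was higher in 5 and lower in 3, with Ptger2 at 2.69, Ptger4 at 2.03, Stat3 at -1.10 and Crem at -0.82. Under saline Ptger2 was 2.46 higher in EAAE, and the receptors of leukemia inhibitory factor, Lifr, and of interleukin 1, Il1r1, were 1.63 and 0.84 higher, 4 genes being higher and 2 lower in all. After E2, 5 were higher and 4 lower, with Ptger2 at 5.14. Of all genes, 22.7% had a higher and 14.8% a lower response in EAAE. Under saline 13.7% of all genes were called higher and 15.8% lower, and after E2 33.0% and 24.8%. The saline calls of Lifr (1.02) and Il1r1 (0.69) were lost with slide and position as terms.

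Acute-phase and inflammatory genes known to respond to C/EBP factors gave 2 rises and 2 falls in WT among 15 tested of 18, where 19.5% of all genes were called higher and 29.9% lower, and their median was -0.16 against -0.15 for all genes. Socs3, a feedback inhibitor of cytokine signalling, rose by 3.79 (SE 0.25, limma adjusted p = 1.51e-06) and the cytokine Csf3 by 1.42, and Cd14, a receptor for bacterial lipopolysaccharide, fell by 1.37. The fourth call was Orm1, which was not well above background on any WT E2 array. In EAAE none was called, where 1.40% of all genes were, and 3 had an unadjusted p under 0.05 (limma), with Socs3 at -0.83 (limma adjusted p = 0.144). The EAAE response of Socs3 minus its WT response was -4.61 (SE 0.35, limma adjusted p = 1.06e-05). In all, 2 of the 15 had a higher and 1 a lower response in EAAE, 1 was higher and 2 lower under saline, and 4 were higher and 4 lower after E2. Of all genes, 22.7% had a higher and 14.8% a lower response. Under saline 13.7% of all genes were called higher and 15.8% lower, and after E2 33.0% and 24.8%. Il1rn was not well above background on every array. Its higher response lost its call with quantile scaling, no filter, and slide with or without position. It was kept in 2 of 12 fits without 1 array. Ptgs2, the prostaglandin synthase, was well above background on no WT array and on all 6 EAAE arrays. With slide and position as terms the saline calls of Ptgs2 (0.68), Lcn2 (-0.91) and Il1rn (-1.97) were lost. The saline call of Il1rn was also lost with slide as a block (-3.15) and without WT saline mouse 1 (-3.12).

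Genes tied to Cebpb through decidualization gave 7 rises and 6 falls in WT among 15 tested of 16, where 19.5% of all genes were called higher, 29.9% lower and 49.4% in either direction, with a median of 0.49 against -0.15 for all genes. Wnt4 (3.29, SE 0.14, limma adjusted p = 1.12e-07) and Il11 (3.20, SE 0.26, limma adjusted p = 5.39e-06), both signals of the decidual response, rose. The stromal regulators Hoxa10 (-1.45) and Nr2f2 (-1.56) fell. In EAAE 1 was called, where 1.40% of all genes were, and 4 had an unadjusted p under 0.05. The 1 called was Hand2 (0.69, limma adjusted p = 0.0371), a stromal factor downstream of progesterone. Its call was lost when any array other than WT saline 1, WT saline 2 or EAAE E2 3 was left out, with differences of 0.60 to 0.74. The call of Hand2 was also lost with no filter, slide as a block, slide with position and only the groups compared. The responses of 4 were higher and of 7 lower in EAAE, with Wnt4 at -3.64 and Hoxa10 at 1.89. Under saline 4 were higher and 1 lower, and after E2 6 were higher and 7 lower. Of all genes, 22.7% had a higher and 14.8% a lower response in EAAE. Under saline 13.7% of all genes were called higher and 15.8% lower, and after E2 33.0% and 24.8%. Stromal markers moved too: 7 of 9 were lower after E2 in WT, all 9 were well above background on every array, and their sum was 486 to 533 in WT saline and 326 to 380 in WT E2, against 383 to 393 in EAAE saline and 402 to 475 in EAAE E2. Hand2, Nr2f2 and Hoxa11 stand in both lists, and the part of stroma in these values was not tested.

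Adipogenic and metabolic genes known to respond to C/EBP factors were mostly lower in WT after E2, with 9 lower and 1 higher of 15, where 29.9% of all genes were called lower and 19.5% higher, and a median of -2.18 against -0.15 for all genes. Several of them, Fabp4, Adipoq, Lep, Plin1, Cidec, Retn and Pck1, are also among the adipocyte markers whose sums are given above. Pparg, the partner of Cebpa in fat cell differentiation, was the 1 gene that rose (2.60, SE 0.60, limma adjusted p = 0.0045). The glucose transporter Slc2a4 (-1.09) and the insulin receptor Insr (-0.59) fell. The latter was not called with the mean of its probes (-0.27) or with slide and position as terms (-0.55, limma adjusted p = 0.0782). None of the 15 was called in EAAE, where 1.40% of all genes were, and 2 had an unadjusted p under 0.05 (limma). The 1 response difference called was that of Pparg, at -2.55 (limma adjusted p = 0.0368). That call was lost without WT saline 2 or 3, WT E2 1 or 2, EAAE saline 1 or 2, or EAAE E2 2 or 3, with values of -2.09 to -2.48. It was also lost with no filter (limma adjusted p = 0.0615), slide as a block (limma adjusted p = 0.077) and slide with position (limma adjusted p = 0.1). Under saline Insr (0.62) and Dgat2 (0.94) were higher in EAAE, and after E2 11 genes were higher and 1 (Pparg, -2.68) lower. Of all genes, 22.7% had a higher and 14.8% a lower response in EAAE. Under saline 13.7% of all genes were called higher and 15.8% lower, and after E2 33.0% and 24.8%. With slide and position as terms the saline calls of Insr (0.69, limma adjusted p = 0.315) and Dgat2 (0.91, limma adjusted p = 0.309) and the call of Pparg after E2 (-2.56, limma adjusted p = 0.161) were lost. The mean of its probes ended the call of Insr under saline too (0.41, limma adjusted p = 0.0519).

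Myeloid granule and receptor genes, which Cebpe and Cebpa are known to drive, were mostly dim, and 6 of 10 were tested. In WT none was called after E2, where 49.4% of all genes were called, and 1 had an unadjusted p under 0.05 (limma). In EAAE, where 1.40% of all genes were called, Mpo, the myeloperoxidase of neutrophil granules, was 2.66 lower (limma adjusted p = 0.0371). The call was lost when any array other than WT E2 2 or WT E2 3 was left out, with differences of -2.22 to -3.02. It was also lost with no filter, slide as a block, slide with position and only the groups compared. Mpo was also the 1 gene of the list with a different response (-2.95), where 37.5% of all genes had a different and 14.8% a lower response. Under saline Mpo was 2.22 higher in EAAE, where Lyz2 (-1.87) and Csf3r (-1.38, well above background on 2 of 3 EAAE saline arrays) were lower. None of these 3 saline calls was kept with slide and position as terms, which gave 1.29 for Mpo (limma adjusted p = 0.597), -0.84 for Lyz2 (limma adjusted p = 0.646) and -1.20 for Csf3r (limma adjusted p = 0.538). Mpo also lost its call with slide as a block (2.05). Csf3r lost its call with no filter, with only the groups compared, and without WT saline mouse 1 (-1.12), WT saline mouse 3 (-1.45), EAAE saline mouse 2 (-1.06) or EAAE saline mouse 3 (-1.23). After E2 the 1 call was Prtn3, which was above background on 1 of 3 EAAE E2 arrays. Between genotypes, 29.5% of all genes were called under saline and 57.8% after E2. Of 11 neutrophil markers on the array, 4 were well above background on all arrays, and Elane and Ngp were so on none. Their sum was 1.34 to 4.64 in WT saline, 1.12 to 1.32 in WT E2, 0.93 to 1.02 in EAAE saline and 0.62 to 1.75 in EAAE E2.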

How the data were processed

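Transcripts were measured in 12 uteri, 1 per single-colour Agilent array, from 500 ng of RNA each, per the labels. The authors' linear intensity of each spot, corrected for background, comes from Agilent Feature Extraction 9.5.3.1, per the file headers. The deposited table of the whole series holds the same intensities on all 43379 spots that are not controls. The 1639 control spots of each array and outlier spots were left out. Median intensity per array was 162.5 to 249.5, median background 62 to 81, and 63.98% to 74.03% of spots were well above background. Arrays give no counts, so their number limits the precision.

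From the deposited intensity, log2 values were averaged per probe and the array's 75th percentile (1324.4 to 1851.8) was subtracted. Tests covered the 29017 of 41174 probes that passed the background flag in every array of 1 or more groups. The probe with the highest mean stood for each of 19301 genes. Gene names were updated through RefSeq (GRCm38.p6), by accession for 22951 probes, another accession for 131, symbol for 6582 and synonym for 3073. For 8152 probes the name in the files was kept, and 285 had none.

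Groups were compared with 2-sided tests of limma 3.58.1 in R 4.3.3 (lmFit, eBayes) over all 12 arrays, with a threshold of 0.05 after Benjamini-Hochberg adjustment. The labels number the mice, but deviations of same-numbered mice correlated at -0.28 to 0.27 (median 0.031, 18 pairs), so the numbers were not used as pairs. In simulated arrays of the WT comparison (19289 genes), 75% of 200 genes changed by 1 log2 unit were recovered with 7 unchanged genes called, and 94.5% at 2 log2 units with 9. Python 3.11.15, numpy 2.4.6, pandas 2.3.3 and matplotlib 3.10.9 were used.

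Lists of genes were written from general knowledge and described by counts, with no test of the list. The members and lists were chosen with earlier results of these data known. Named genes were all C/EBP probes, up to 4 members of each pathway list with the smallest p in each comparison, the 5 genes nearest each member in pattern, Esr1, and cell type markers as sums. A list member outside this rule is named where a count of 5 or fewer, or the makeup of a list, called for it, and was then chosen after its values were seen. The alternatives tried were normexp background, scaling by array median or quantiles, no filter or a filter on all 12 arrays, the mean of a gene's probes, the replicate block, slide with and without position as terms, only the groups compared, the deposited table, an intensity trend, and leaving out each array.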

Additional observations from a re-analysis of the deposited data

Results flagged for a closer look

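Cebpb, Cebpd and Cebpg responded differently to E2 in the EAAE and WT uterus by a test of the difference itself (limma, EAAE response minus WT response). For Cebpb the difference was -3.82 (limma adjusted p = 1.83e-06), and all 3 WT E2 uteri lay above all 9 others. For Cebpd it was -0.75 (limma adjusted p = 0.0046), with EAAE already higher under saline. For Cebpg it was -0.87 (limma adjusted p = 0.0058), and its furthest probe had -0.49 (limma adjusted p over all probes = 0.0864).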

How the results depend on the processing

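The rise of Cebpb, Cebpd and Cebpg in WT and their response differences kept direction and call under all 12 alternatives and without each array. Without single arrays the WT changes ranged from 3.22 to 3.33, 0.64 to 0.79 and 0.67 to 0.83.

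Slide with position moved the most. It gave 6272 genes for E2 in WT, 7 in EAAE, 416 between genotypes under saline and 5195 after E2, and, between genotypes, Cebpd 1.22 (limma adjusted p = 0.0508) under saline and Cebpa -0.71, Cebpd 0.39 and Cebpg -0.071 after E2, all no longer called. It turned the EAAE response of Cebpa to 0.23 (its other probe 0.21) and of Cebpg to 0.071, and the saline difference of Cebpa to 0.59 (other probe 0.82) and of Cebpg probe A_51_P521216 to -0.048. The Cebpg zipper probe kept its call between genotypes after E2 with slide and position (-0.90, limma adjusted p over all probes = 0.0424). Slide as a block gave 151 genes for E2 in EAAE and 3621 under saline. The 271 genes of E2 in EAAE became 127 with no filter and 7 with only the groups compared. The mean of probes called Cebpb in EAAE (-0.62), the Cebpa response difference (-1.46) and Cebpg under saline (0.32). The fit of only the groups compared used fewer arrays, and the causes of these changes were not tested.

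Leaving out single arrays moved the EAAE count from 62 to 381. Cebpa ranged from 0.89 to 1.54 for E2 in WT, from -0.33 to 0.18 in EAAE, from -1.58 to -0.93 for the response difference and from -0.40 to 0.25 under saline. In EAAE, Cebpb ranged from -0.71 to -0.37 and Cebpd from -0.11 to 0.028. Cebpa probe A_51_P214087 ranged from -0.47 to 0.015 in EAAE and from -0.54 to 0.11 under saline, and Cebpg probe A_51_P521216 from -0.073 to 0.10 after E2.

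The replicate block changed no call in the fit over all genes of a C/EBP gene. It ended the saline call of Cebpg probe A_51_P521216 (limma adjusted p over all probes = 0.0534) and gave 144 genes for E2 in EAAE. Deviations correlated at a median of 0.031 for same-numbered mice and 0.018 for others. Of the pairs, 8 of 18 same-numbered and 12 of 36 others correlated above 0.1. Of 80 calls of named pathway genes, 48 were kept under every setting, 32 were lost with slide and position, 10 without 1 array, 9 with slide as a block and 7 with no filter, and none changed direction. Changes near 0 in groups of 3 mice, such as those of Cebpa in EAAE, have no settled sign.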
